A study of Homo sapiens with 6 samples.

Results

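The 10 genes described here are the transcription factors ATF4, ATF5, ATF3, DDIT3, CEBPB and CEBPG and the effectors TRIB3, PPP1R15A, SESN2 and DDIT4, taken by gene symbol from a table of 61806 genes. All 10 were in the table, and all 10 passed the expression minimum of the tests, a mean of at least 1 FPKM (fragments per kilobase of exon, scaled to the assigned counts of the library) over the 6 libraries, as did 12550 genes in all. RNA came from HEK293 cells, an established human line derived from embryonic kidney with a piece of adenovirus DNA, all grown in the same serum-containing medium. The groups were cells in which CRISPR homology-directed repair had introduced rs16851030, a variant of the adenosine A1 receptor gene ADORA1 (rs16851030-mutant, 3 libraries), and wild-type cells (3 libraries). The design text calls the 3 libraries of each group biological replicates, but whether the edited ones stem from 1 clone was not given in the sources used here. Each p-value below is thus set against the scatter of these libraries alone, and an effect of the variant and a difference between cell lineages cannot be told apart.

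ATF4 is a basic leucine zipper factor at the centre of the integrated stress response. Kinases that sense unfolded protein, missing amino acids, double-stranded RNA or mitochondrial stress phosphorylate the initiation factor eIF2, which slows most translation but favours translation of ATF4 through short reading frames ahead of its coding sequence. ATF4 protein then pairs with other zipper proteins and switches on genes for amino acid supply, redox balance and, under prolonged stress, cell death. These data measure RNA, so the translational step was not seen here.

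In the rs16851030-mutant cells 6 of the 10 genes rose, 2 fell and 2 did not pass the test. The genes that rose were DDIT4, ATF3, CEBPB, SESN2, ATF4 and CEBPG, and the genes that fell were ATF5 and PPP1R15A. DDIT3 and TRIB3, a cell death factor and its co-regulator, did not pass. The test was edgeR's quasi-likelihood F-test, with p-values adjusted by the Benjamini-Hochberg method over all tested genes and a threshold of 0.05. With the same rule 58.1% of all tested genes were called, 29.3% higher and 28.7% lower, so a called gene is not unusual in this comparison. All 6 genes that rose did so by at least 1.5-fold, as did 9.95% of tested genes, and 14.4% were called at that fold in either direction. The median log2 fold change of the 10 genes was 0.70, and that of all tested genes was -0.001. In bulk RNA, fewer cells that carry a transcript and less of it per cell cannot be told apart.

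Promoter sequences were looked up for motifs that stress factors are known to bind, and those shown are the windows with a composite element or CRE match and that of DDIT4, which changed most. All 10 genes had an entry in RefSeq's promoter table (GRCh38.p14, the build of the deposited coordinates), which gives 250 bases before and 50 after each start, with 19 windows for these genes. The motifs, searched on both strands, were the C/EBP-ATF composite element TGATGNAA, the palindromic CRE (cAMP response element) TGACGTCA, and CCACG, a core of the ER stress element. No 2 of the matches shown overlap. Capitals mark the matches in the stretches below, each read 5′ to 3′ and limited to bases outside annotated exons.
CEBPG, chr19:33373896-33374112, plus strand: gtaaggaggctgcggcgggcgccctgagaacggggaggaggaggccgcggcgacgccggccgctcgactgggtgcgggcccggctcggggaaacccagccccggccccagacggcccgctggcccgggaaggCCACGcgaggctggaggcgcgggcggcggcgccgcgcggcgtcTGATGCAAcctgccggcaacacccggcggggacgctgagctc
ATF3, chr1:212565157-212565333, plus strand: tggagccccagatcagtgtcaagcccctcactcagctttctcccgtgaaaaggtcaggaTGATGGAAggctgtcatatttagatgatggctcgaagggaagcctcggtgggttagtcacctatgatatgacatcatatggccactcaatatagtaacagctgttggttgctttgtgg
PPP1R15A, chr19:48872171-48872391, plus strand: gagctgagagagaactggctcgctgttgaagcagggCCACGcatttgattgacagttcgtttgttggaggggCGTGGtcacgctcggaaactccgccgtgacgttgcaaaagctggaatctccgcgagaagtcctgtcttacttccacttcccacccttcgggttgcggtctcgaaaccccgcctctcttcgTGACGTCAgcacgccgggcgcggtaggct
DDIT4, chr10:72273674-72273919, plus strand: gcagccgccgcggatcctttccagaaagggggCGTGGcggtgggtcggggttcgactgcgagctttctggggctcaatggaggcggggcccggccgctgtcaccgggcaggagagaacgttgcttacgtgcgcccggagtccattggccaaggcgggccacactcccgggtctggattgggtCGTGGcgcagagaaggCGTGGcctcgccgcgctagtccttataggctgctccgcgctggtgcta

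The composite element was found in ATF3 and CEBPG, 2 of the 10 genes, and in 4.46% of the 27305 genes in the promoter table (3.62% of 35116 windows). In CEBPG it began at position -42 from the start at 33374113, where 0 is the first transcribed base, and in ATF3 at position -191 from the start at 212565407. The CRE was found in PPP1R15A at position -58 and in 2.25% of all genes. CCACG or its complement was found in 6 of the 10 genes and in 42.1% of all genes, with 4 matches in the DDIT4 window, the last of them after the start. A match is a string of letters and not a shown binding site, and a window without a match says nothing of the factor. The 2 genes with the composite element rose and the gene with the CRE fell.

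ATF4 (ENSG00000128272, GRCh38 chr22:39519695-39522683, plus strand) was by far the most abundant transcript of the group. Its level was 354.57, 389.69 and 381.57 FPKM in the mutant libraries, against 227.10, 212.82 and 221.88 FPKM in the wild-type libraries. All 3 mutant values lay above all 3 wild-type values, and the spread within each group was small. The rise was 1.66-fold, or 0.73 on the log2 scale (SE 0.04, adjusted p = 2.28e-10), on 9380 to 18854 counts per library. ATF4 made up 68.5 to 69.5% of the summed FPKM of the 10 genes in the mutant and 71.0 to 72.0% in the wild type. Of its processed pseudogenes, ATF4P3 had 20 to 32 counts per mutant library and 14 to 24 per wild-type library, far below ATF4 itself.

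ATF5, the closest relative of ATF4 in the group and a factor tied to mitochondrial stress, moved the other way from a very low level. It had 1.68, 1.44 and 1.32 FPKM in the mutant libraries, against 2.47, 2.36 and 2.36 FPKM in the wild-type libraries, with no overlap. The log2 fold change was -0.72 (SE 0.15, adjusted p = 0.00046), on 61 to 128 counts per library. ATF5 (chr19:49928702-49933935, plus strand) overlaps NUP62, a nuclear pore gene on the opposite strand, over 1063 bases. On that strand IL4I1 also overlaps it over 838 bases. A coding gene without a symbol, again on the opposite strand, spans all 5234 bases of ATF5 and had 0 counts in every library. Whether counting used strand was not given in the sources used here, which leaves reads of these overlaps uncertain over the whole gene. NUP62 had 1754 to 2409 counts per mutant library, against 1735 to 1798 per wild-type library.

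ATF3, a stress-induced zipper factor and target of ATF4, rose more than ATF4 did. Its level was 22.44, 21.61 and 23.08 FPKM in the mutant libraries, against 8.03, 6.66 and 6.94 FPKM in the wild-type libraries. The groups stood far apart and the mutant libraries differed little among themselves. The rise was 3.03-fold (log2 fold change 1.60, SE 0.07, adjusted p = 3.37e-12), which placed ATF3 99 from the top of the 12550 tested genes. The ratio of ATF3 to ATF4 FPKM within a library, which no scaling affects, was 0.0555 to 0.0633 in the mutant and 0.0313 to 0.0354 in the wild type.

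DDIT3 encodes CHOP, the factor that turns a lasting ATF4 response towards cell death. It had 3.50, 5.36 and 4.40 FPKM in the mutant libraries, against 4.99, 4.81 and 4.22 FPKM in the wild-type libraries. The mutant values spanned the whole wild-type range, with mutant replicate 1 lowest and mutant replicate 2 highest of the 6. The log2 fold change was -0.12 (SE 0.16, 95% interval -0.47 to 0.22, adjusted p = 0.535), so a rise as large as that of ATF4 lay outside the interval. Without mutant replicate 1 the value was 0.03. The ratio of DDIT3 to ATF4 FPKM was 0.00987 to 0.0138 in the mutant, against 0.0190 to 0.0226 in the wild type, without overlap. DDIT3 (chr12:57516588-57521737, minus strand) shares 982 bases with the end of MARS1, on the opposite strand, and 1028 with MBD6, and rested on 92 to 118 counts per library. A coding gene without a symbol, on the same strand as DDIT3, overlaps its span over 2769 bases and had 0 counts in every library. How reads shared with that gene were counted is uncertain, which limits what the DDIT3 level and ratio show.

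CEBPB and CEBPG encode C/EBP factors that pair with ATF4 on composite elements, and both rose. CEBPB had 18.30, 16.41 and 15.52 FPKM in the mutant libraries, against 10.34, 8.12 and 9.93 FPKM in the wild-type libraries. The rise was 0.79 on the log2 scale (SE 0.09, adjusted p = 1.42e-06), and the lowest mutant value stood well clear of the highest wild-type value. CEBPG, a C/EBP protein without its own activation domain, had 33.34, 32.51 and 34.38 FPKM in the mutant libraries, against 20.86, 19.88 and 20.61 FPKM in the wild-type libraries. It rose by 0.67 (SE 0.05, adjusted p = 1.41e-09) and was even across libraries, with a coefficient of variation of 2.80% in the mutant and 2.49% in the wild type. An antisense transcript, CEBPB-AS1, overlaps CEBPB over 669 bases and had 7 to 18 counts in mutant and 1 to 4 counts in wild-type libraries.

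**Figure D1:**
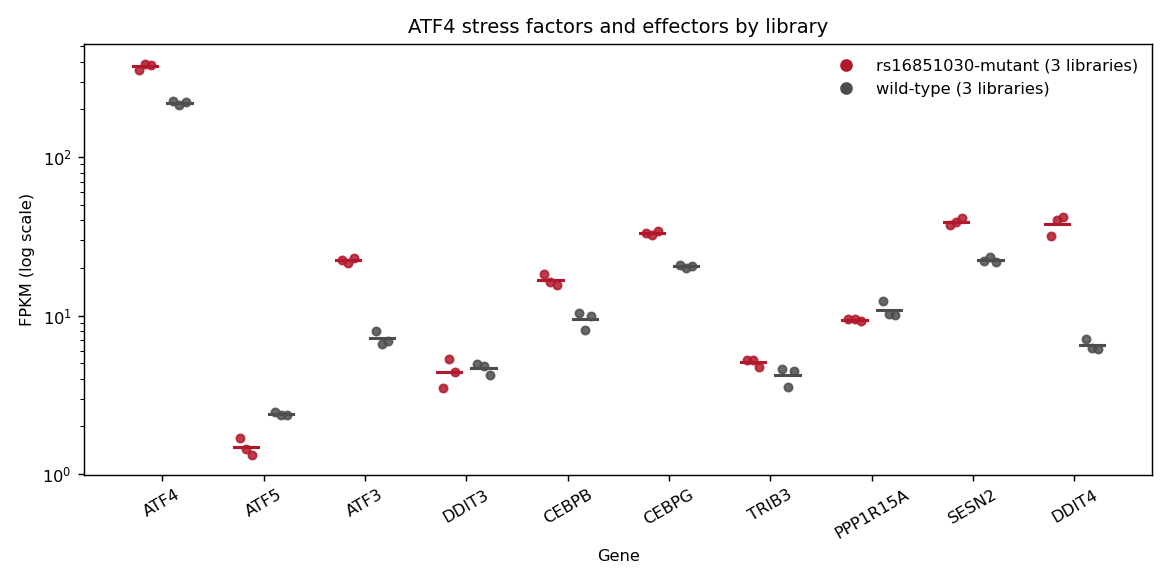
FPKM (log scale) of the 10 genes in each of 6 libraries, with rs16851030-mutant points left of wild-type points and bars at the mean of 3 libraries. The mutant points lie above the wild-type points without overlap for DDIT4, ATF3, CEBPB, SESN2, ATF4, CEBPG and TRIB3, below them for ATF5 and PPP1R15A, and around them for DDIT3.

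TRIB3 is a pseudokinase that is induced by ATF4 and DDIT3 and in turn restrains ATF4 activity. Its values were 5.24, 5.25 and 4.74 FPKM in the mutant libraries, against 4.62, 3.57 and 4.47 FPKM in the wild-type libraries. The mutant values were all higher, but the nearest values of the groups, 4.74 and 4.62, were close. The log2 fold change of 0.23 (SE 0.11, adjusted p = 0.0721) did not pass. It passed without wild-type replicate 1 (0.30, adjusted p = 0.0289) and with library totals as the scaling (0.27, adjusted p = 0.045). With TRIB3 included, the groups did not overlap in 9 of the 10 genes, 7 with the mutant above and 2 with it below, where 62.9% of all tested genes did not overlap, 34.8% above and 28.1% below.

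PPP1R15A encodes GADD34, which brings protein phosphatase 1 to eIF2 and so ends the stress signal. It had 9.54, 9.54 and 9.19 FPKM in the mutant libraries, against 12.37, 10.31 and 10.13 FPKM in the wild-type libraries. The fall was small, -0.25 on the log2 scale (SE 0.08, adjusted p = 0.0134), and wild-type replicate 1 stood above the other wild-type libraries. Without that library the value was -0.15 and the call was lost (adjusted p = 0.0795). The call was also lost with limma on log2(FPKM + 1) (-0.19, adjusted p = 0.0537). PPP1R15B, the constitutive counterpart, had 16.69 to 18.84 FPKM in the mutant and 17.11 to 18.76 FPKM in the wild type (log2 fold change -0.05, 95% interval -0.16 to 0.05, adjusted p = 0.388).

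SESN2 and DDIT4 encode stress-induced inhibitors of the growth kinase complex mTORC1. SESN2, a leucine sensor, had 37.52, 38.76 and 41.05 FPKM in the mutant libraries, against 22.12, 23.34 and 21.66 FPKM in the wild-type libraries. Its rise of 0.77 (SE 0.05, adjusted p = 1.11e-09) was close in size to that of ATF4. DDIT4, also called REDD1, had 31.67, 40.30 and 41.84 FPKM in the mutant libraries, against 7.11, 6.27 and 6.17 FPKM in the wild-type libraries. Mutant replicate 1 was lowest of the mutant libraries, yet more than 4 times the highest wild-type value. The rise was 5.67-fold (log2 fold change 2.50, SE 0.10, adjusted p = 2.68e-12) and ranked 18 from the top of all tested genes. The DDIT4 to SESN2 ratio was 0.844 to 1.04 in the mutant and 0.269 to 0.321 in the wild type.

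On the FPKM scale, which is per length, the order of levels differed between the groups below the top. ATF4 and SESN2 were first and second in both. In the mutant, DDIT4 came next at 37.9 ± 5.48 FPKM (SD, n = 3), its range overlapping those of SESN2 and CEBPG, followed by CEBPG, ATF3, CEBPB and PPP1R15A without overlap between neighbours. In the wild type, CEBPG, PPP1R15A, CEBPB and ATF3 followed SESN2, and DDIT4 came after ATF3 at 6.52 ± 0.516 FPKM (SD, n = 3), with overlapping ranges. TRIB3 and DDIT3 overlapped each other in both groups, and ATF5 was lowest in both. The 10 genes together took 0.144 to 0.154% of the assigned counts in mutant cells, against 0.0829 to 0.0888% in wild-type cells.

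**Figure D2:**
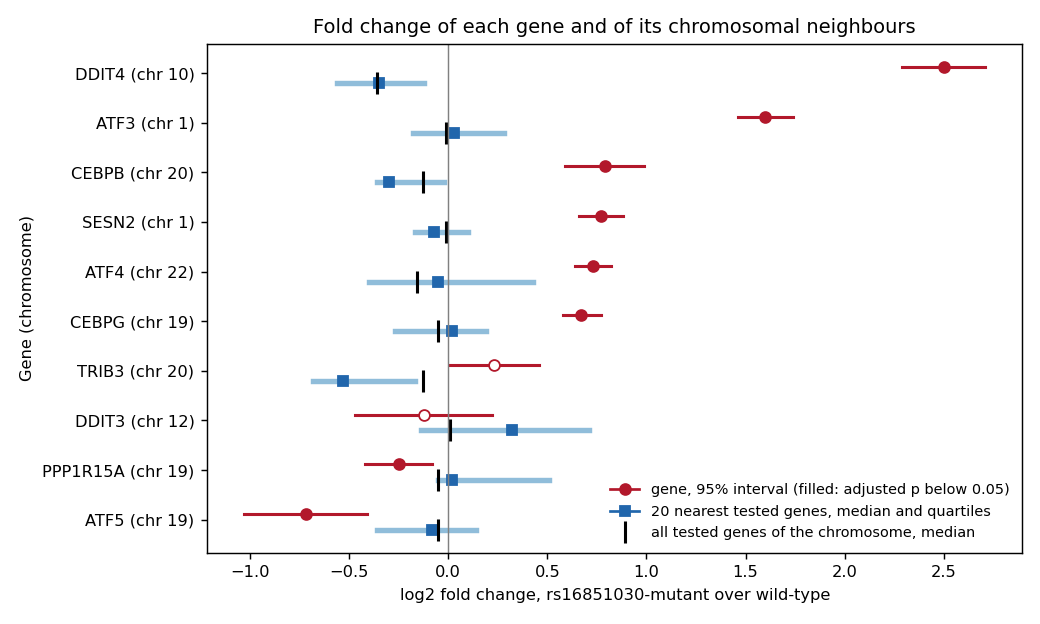
Log2 fold change (rs16851030-mutant over wild-type) of each gene with its 95% interval (circles, filled where the adjusted p was below 0.05), beside the median and quartiles of its 20 nearest tested genes (squares) and the median of its chromosome (ticks). DDIT4, at 2.50, rose on a chromosome whose genes had a median of -0.36.

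Genes of whole chromosomes differed between these cells, so each value was set beside its neighbours. DNA copy number was not measured here, and its part in the values was not tested. DDIT4 lies on chromosome 10, where 65.2% of 491 other tested genes fell. Its 20 nearest tested genes had a median log2 fold change of -0.35, and all 20 lay below DDIT4. TRIB3 lies near the start of chromosome 20, where 43.9% of tested genes fell, and its 20 nearest tested genes had a median of -0.53, with 12 lower and 2 higher, so TRIB3 at 0.23 stood above 17 of them. CEBPB, farther along chromosome 20, stood above all 20 of its neighbours, whose median was -0.30. ATF4 lies on chromosome 22, where 41.9% of genes fell, but its own neighbours had a median of -0.05, and 17 of 20 were below it. ATF3 was above all 20 of its neighbours (median 0.03), and CEBPG and SESN2 were each above 19 (medians 0.02 and -0.07). ATF5 was below all 20 of its neighbours (median -0.08). PPP1R15A was above 3 of its 20 neighbours (median 0.02) and DDIT3 above 5 (median 0.32).

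Related genes did not all follow their stress-responsive family member. Both other Tribbles genes rose where TRIB3 did not pass. TRIB2 had 10.32, 10.24 and 11.16 FPKM in the mutant libraries, against 5.29, 4.63 and 5.46 FPKM in the wild-type libraries (log2 fold change 1.01, SE 0.07, adjusted p = 3.72e-09). TRIB1, which marks C/EBP proteins for degradation, rose by 0.87 (SE 0.07, adjusted p = 1.1e-08). The interval of the TRIB3 change, 0.01 to 0.46, lay below those of TRIB1 (0.73 to 1.02) and TRIB2 (0.85 to 1.16), and the difference between these genes was not itself tested.

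DDIT4L, the paralogue of DDIT4, fell while DDIT4 rose. It had 0.71, 0.52 and 0.69 FPKM in the mutant libraries, against 1.64, 1.13 and 1.86 FPKM in the wild-type libraries, which is -1.30 as a log2 fold change (SE 0.22, adjusted p = 6.78e-05), on 26 to 99 counts per library. Among sestrins, SESN3 rose slightly (0.21, SE 0.05, adjusted p = 0.00275) and SESN1 had a value of 0.10 (adjusted p = 0.208), which passed without wild-type replicate 1 (0.17, adjusted p = 0.0292). SESN2 was 4.68 to 5.10 times as abundant per length as SESN3 in the mutant and 3.23 to 3.35 times in the wild type. Among other C/EBP genes, CEBPA (-0.19, 95% interval -0.51 to 0.13) and CEBPD (0.20, 95% interval -0.43 to 0.83) did not pass, CEBPE had 1 count in all libraries together, and CEBPZ, a CCAAT-binding protein without a leucine zipper, had a value of -0.07 (adjusted p = 0.173). In the whole list of 30 paralogues, 25 were tested, 9 rose, 5 fell and 11 did not pass (median 0.09). That is 36% higher and 20% lower, not far from the 29.3% and 28.7% of all tested genes. CREB3L1, a membrane-bound zipper factor of the secretory pathway, rose by 1.92 (adjusted p = 5.54e-08) to 1.81 ± 0.155 FPKM in the mutant, against 0.467 ± 0.0551 FPKM in the wild type (SD, n = 3 each). ATF6B, a relative of the stress sensor ATF6, rose by 0.45.

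**Figure D3:**
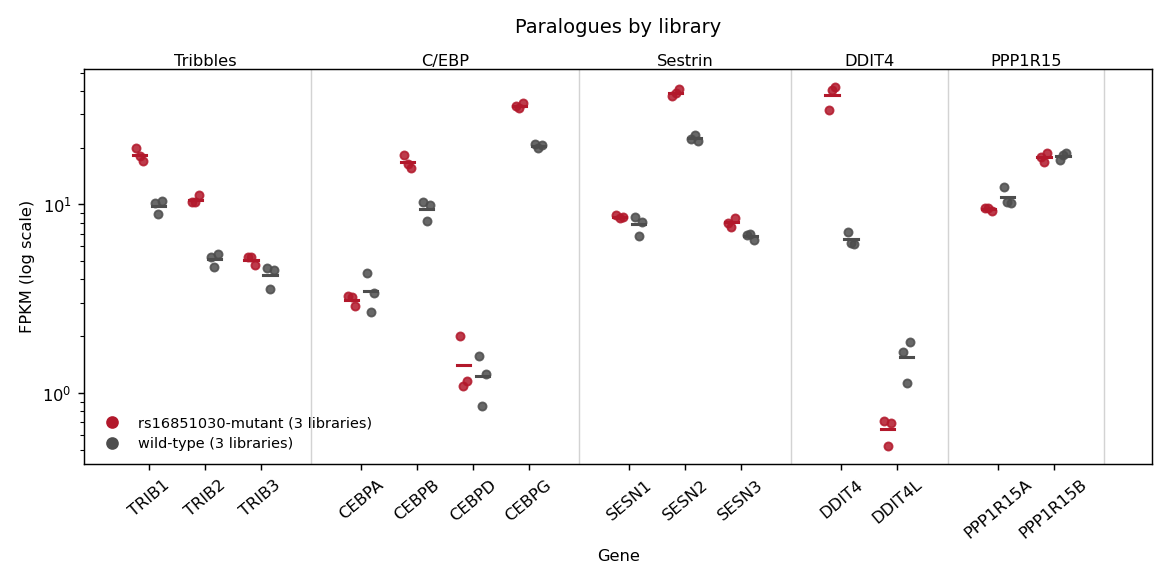
FPKM (log scale) of the genes and their paralogues in each library, rs16851030-mutant left of wild-type, with bars at the mean of 3 libraries. TRIB1 and TRIB2 stand apart between groups where TRIB3 is close, and DDIT4L is lower in the mutant while DDIT4 is higher.

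Upstream of ATF4, 3 of the 4 kinases that phosphorylate eIF2 rose slightly in RNA. EIF2AK1 (HRI, which responds to heme and mitochondrial stress) rose by 0.19 (SE 0.04, adjusted p = 0.000417), EIF2AK4 (GCN2, the amino acid sensor) by 0.15 (adjusted p = 0.0159) and EIF2AK2 (PKR, the double-stranded RNA sensor) by 0.14 (adjusted p = 0.0186). The EIF2AK2 call was lost without mutant replicate 1 (0.11, adjusted p = 0.0928), mutant replicate 3 or wild-type replicate 3, and the EIF2AK4 call without wild-type replicate 2 (0.12, adjusted p = 0.0785). EIF2AK3 (PERK, the endoplasmic reticulum sensor) had 1.24 ± 0.106 FPKM in the mutant and 1.15 ± 0.0451 in the wild type (SD, n = 3 each) and did not pass (0.08, adjusted p = 0.419). IMPACT, which holds GCN2 inactive, rose by 0.56 (SE 0.05, adjusted p = 2.24e-08), and DELE1, which carries the mitochondrial signal to HRI, by 0.37 (adjusted p = 0.000187). OMA1, the protease that cleaves DELE1, fell by 0.17 (adjusted p = 0.0116) but did not pass without mutant replicate 3 (-0.16, adjusted p = 0.0516). Of the 10 kinases and regulators, 5 rose, 1 fell and 4 did not pass (median 0.13). The genes that rose include IMPACT, an inhibitor. The shares were 50% higher and 10% lower, against 29.3% and 28.7% of all tested genes.

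All 5 subunits of eIF2B, the exchange factor that phosphorylated eIF2 blocks, were lower in the mutant, an observation made after the values were seen. EIF2B1 had 25.36, 27.09 and 25.52 FPKM in the mutant libraries, against 34.95, 34.10 and 37.25 FPKM in the wild-type libraries (log2 fold change -0.48, SE 0.05, adjusted p = 2.08e-07). The other subunits fell less: EIF2B4 by 0.42, EIF2B5 by 0.33, EIF2B2 by 0.30 and EIF2B3 by 0.16 on the log2 scale, the last not passing without mutant replicate 1 (-0.14, adjusted p = 0.0669) or wild-type replicate 3. Of eIF2 itself, the alpha subunit EIF2S1, which carries the phosphorylation site, fell by 0.31 (adjusted p = 6.1e-06), while EIF2S2 rose by 0.26 and EIF2S3 by 0.25. The phosphatase catalytic subunit PPP1CA fell by 0.36 (adjusted p = 1.13e-06). In this list of 13, 3 rose, 7 fell and 3 did not pass (median -0.16). That is 23.1% higher and 53.8% lower, against 29.3% and 28.7% of all tested genes.

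Metabolic targets of ATF4 rose almost throughout. Of 37 listed genes 35 were tested, and 32 (91.4%) rose, 1 fell and 2 did not pass, with a median log2 fold change of 0.55. Of all tested genes 29.3% were called higher. The 4 with the smallest adjusted p were PCK2, ALDH1L2, MTHFD2 and CTH. PCK2, a mitochondrial enzyme that makes phosphoenolpyruvate, had 16.45, 16.70 and 16.65 FPKM in the mutant libraries, against 2.99, 2.43 and 2.71 FPKM in the wild-type libraries. ALDH1L2, a mitochondrial folate enzyme, rose by 1.94 (SE 0.06), CTH, which makes cysteine from cystathionine, by 1.74 (SE 0.06) and MTHFD2 by 1.09 (SE 0.04). ALDH18A1, an enzyme of proline synthesis on chromosome 10, was the gene that fell (-0.38, adjusted p = 1.9e-07). Among the genes that rose, AARS1 (1.07), GPT2 (1.06) and SLC7A5 (0.59) lie on chromosome 16, where 62.6% of tested genes rose. The part of the chromosomes in these values was not tested. The list was drawn up with earlier results on these data known, so its direction is not independent support.

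Other targets of ATF4 and DDIT3, which cover growth factors, autophagy and apoptosis, were mixed. Of 30 listed genes 25 were tested, and 15 rose, 7 fell and 3 did not pass (median 0.36). That is 60% higher and 28% lower, against 29.3% and 28.7% of all tested genes. HERPUD1, a membrane protein of endoplasmic reticulum degradation, rose by 1.43, CLIC4 by 0.73, the translation inhibitor EIF4EBP1 by 0.91 and the hormone gene STC2 by 0.98. The genes named next were chosen after their values were seen. The autophagy genes were split: WIPI1 (1.53, adjusted p = 9.82e-07), MAP1LC3B on chromosome 16 (0.37, adjusted p = 1.38e-06) and GABARAPL1 (0.35, adjusted p = 0.000744) rose, SQSTM1 (-0.76), ATG16L1 (-0.35) and ATG5 fell, and ATG7 and ATG12 did not pass. ATG5, at -0.16, lost its call when any of 4 single libraries was left out, among them wild-type replicate 2 (-0.09, adjusted p = 0.241). The cell death genes were split as well. PMAIP1 (0.54, adjusted p = 9.03e-07) and BBC3 (0.42, adjusted p = 0.00258), which encode killer proteins of the BCL2 family, rose, and BCL2L11, of the same family, fell (-0.31, adjusted p = 0.00237). TNFRSF10B, a death receptor, had a value of 0.12 (adjusted p = 0.0737) and passed without wild-type replicate 1 (0.17, adjusted p = 0.0166) or 3. The other genes of the list that fell were SIRT1, TXNIP and RIT1. SIRT1 lies on chromosome 10, where 65% of 492 tested genes fell.

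The other arms of the unfolded protein response moved less. Of 24 genes of the XBP1 and ATF6 arms, 13 rose, 4 fell and 7 did not pass (median 0.13). That is 54.2% higher and 16.7% lower, against 29.3% and 28.7% of all tested genes. The proteases that release ATF6, MBTPS1 and MBTPS2, rose by 0.70 and 0.47, XBP1 by 0.45, and CRELD2, a secretory pathway gene, fell by 0.44. MBTPS1 and HERPUD1 lie on chromosome 16, where 62.6% of 578 tested genes rose and 5.71% fell, with a median of 0.29. XBP1 and CRELD2 both lie on chromosome 22, where 41.7% of 333 tested genes fell and 16.5% rose. The part of the chromosomes in these values was not tested. Of the regulators of mTORC1 on which SESN2 and DDIT4 act, 32 were tested, and 4 rose, 13 fell and 15 did not pass (median -0.09). Here 12.5% were called higher and 40.6% lower. WDR59 rose by 0.81 and NPRL3 by 0.65, both components of the GATOR complexes that pass on amino acid signals and both on chromosome 16, while AKT1S1, an inhibitory subunit of mTORC1, fell by 0.58 and SEH1L by 0.42.

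**Figure D4:**
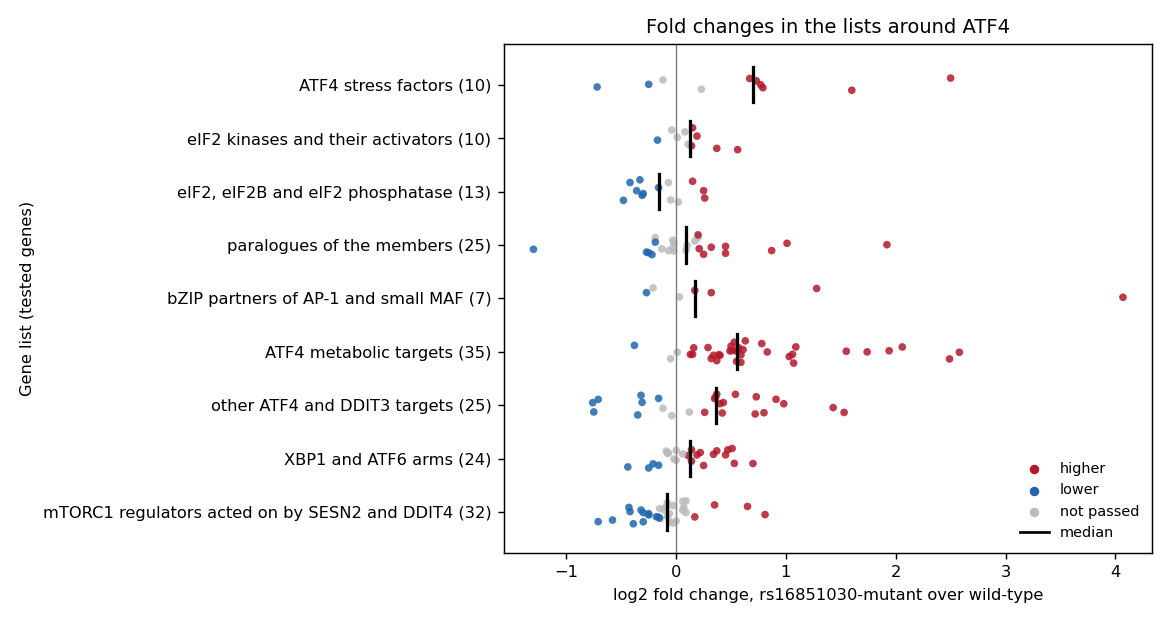
Log2 fold change (rs16851030-mutant over wild-type) of every tested gene in the lists around ATF4, coloured by call, with a bar at the list median and the number of tested genes in brackets. The medians run from -0.16 for the list of eIF2, eIF2B and the phosphatase to 0.70 for the 10 stress factors, with 0.55 for the metabolic targets.

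Zipper partners outside the group were led by AP-1 factors. Of 12 listed genes 7 were tested, and 4 rose, 1 fell and 2 did not pass (median 0.17). That is 57.1% higher and 14.3% lower, against 29.3% and 28.7% of all tested genes. FOS rose by 4.07 (SE 0.33) to 5.33 ± 2.5 FPKM in the mutant, against 0.313 ± 0.102 FPKM in the wild type (SD, n = 3 each), and JUN, a known partner of ATF3, by 1.28 (SE 0.06, adjusted p = 9.11e-12), with 298.85, 275.16 and 266.83 FPKM in the mutant libraries, against 102.61, 111.81 and 124.60 FPKM in the wild-type libraries. JUND (0.32) and MAFG (0.17) passed as well, but each lost its call in 4 of the 6 fits with 1 library left out, JUND falling to 0.17 (adjusted p = 0.269) without mutant replicate 1 and MAFG to 0.11 (adjusted p = 0.222).

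Genes with the nearest profiles over the 6 libraries were found by the distance between centred log2(FPKM + 1) values among 10780 tested protein-coding genes. Those nearest to ATF4 were C1QL1, SLC6A6 and LYRM1, with distances of 0.078, 0.079 and 0.091 and log2 fold changes of 0.92, 0.87 and 0.81. LYRM1 lies on chromosome 16, where 62.6% of 578 tested genes rose. Those nearest to DDIT4 were PCK2, H2BC21 and PTN at 0.333, 0.420 and 0.423. With 6 libraries in 2 groups, the distance mostly measures the difference between groups, and H2BC21 has close relatives that may share reads.

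The mutant libraries held 16013460 to 20349609 assigned counts each, and the wild-type libraries 16867853 to 17938985. No pair of libraries within a group was a duplicate, with a chi-square per degree of freedom of at least 2.491. Of 17 markers of blood, liver, squamous, endothelial and fibroblast or muscle cells, 10 averaged below 0.1 FPKM, and CD3E and HBB had no count in any library. Their summed level was 8.03 to 8.36 FPKM in the mutant and 4.64 to 4.72 FPKM in the wild type, and COL1A1 was the marker that reached the minimum and rose (0.73). Of 13 kidney and neural markers known for HEK293 cells, 10 were tested, 3 rose and 6, led by VIM and INA, fell, and PAX8 had no count in any library. That is 30% higher and 60% lower, against 29.3% and 28.7% of all tested genes. VIM and INA lie on chromosome 10, where 65% of 492 tested genes fell, with a median of -0.36. The part of that chromosome in the marker values was not tested. The part of these markers in the values above was not tested.

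**Figure D5:**
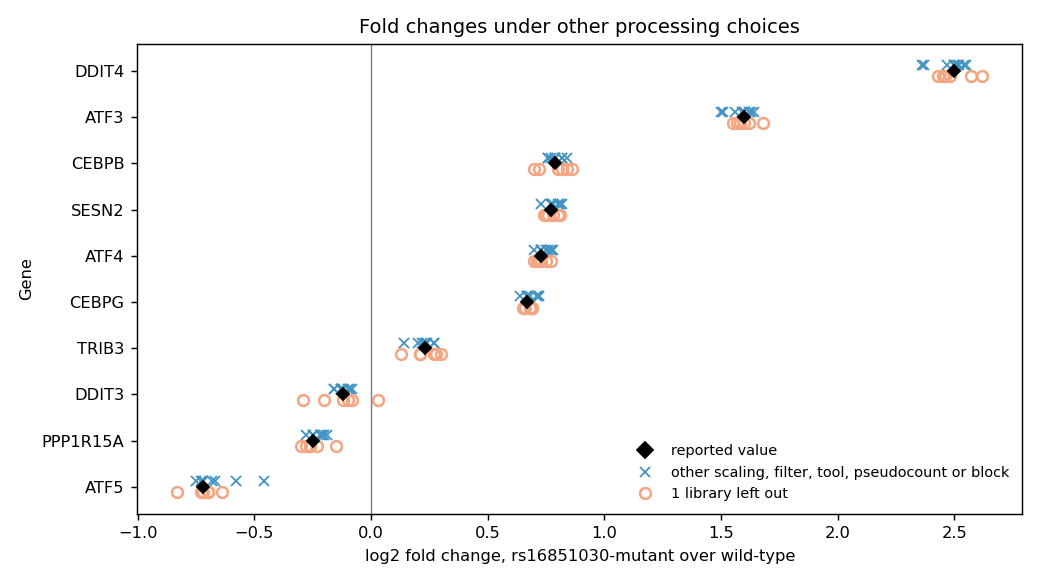
Log2 fold change (rs16851030-mutant over wild-type) of each gene as reported (diamonds), under other scalings, filters, tools, pseudocounts or a replicate block (crosses), and with 1 library left out (open circles). DDIT4, ATF3, CEBPB, SESN2, ATF4 and CEBPG stay on the right of 0 and apart from it, and DDIT3 crosses 0 without mutant replicate 1, at 0.03.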

How the data were processed

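Poly(A) RNA of 6 HEK293 libraries was sequenced as paired ends, per the labels' protocols. The deposited table holds raw counts per gene and FPKM, which the authors made with cutadapt, HISAT2 2.0.1 and HTSeq on GRCh38, per the submitters' processing notes; the annotation release and strand setting were not given in the sources used here. Deposited FPKM, made by the authors, equals deposited counts over exonic length and library total, within 0.011 in 100% of values.

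Counts of the 12550 genes with a mean of at least 1 FPKM were scaled by TMM and fitted in edgeR 4.0.16 (quasi-likelihood F-test) with genotype as the single factor, two-sided, adjusted by Benjamini-Hochberg over all tested genes. The standard error (SE) and 95% interval come from that fit, whose common biological coefficient of variation was 0.0478. Fold changes are rs16851030-mutant over wild-type. The fits were tested on simulated data with known changes. Alternatives were other scalings and filters, DESeq2 1.42.0, limma 3.58.1 on log2(FPKM + 1) or log2(FPKM + 0.1), a block for replicate number and leaving out each library.

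The 10 genes and the 10 other lists were chosen with earlier results of these data known. Genes were named by rule: the 10 genes, up to 4 per list with the smallest adjusted p, all paralogues of the effectors and C/EBP genes, the eIF2 kinases, and the 3 nearest profiles to ATF4 and to DDIT4; CEBPZ, IMPACT, DELE1, OMA1, the other subunits of eIF2B and eIF2, ALDH18A1 and further single genes were added after their values were seen. Leader sequences ahead of coding sequences were counted for ATG in GENCODE release 29, 1 transcript per gene with the longest coding sequence.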

Additional observations from a re-analysis of the deposited data

How the results depend on the processing

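The 6 genes called higher stayed called under all 16 alternatives, at log2 fold changes of 0.70 to 0.78 for ATF4,  0.70 to 0.86 for CEBPB, 0.64 to 0.72 for CEBPG, 0.73 to 0.82 for SESN2 and 2.36 to 2.62 for DDIT4; ATF3 ran from 1.55 to 1.68 with a library left out. TRIB3 joined them, making 7, with library totals as the scaling and without wild-type replicate 1. ATF5 stayed called wherever it was tested (-0.83 to -0.46). The number of genes called lower was 1 instead of 2 with the minimum raised to 5 FPKM, where ATF5 was not tested, and 1 with limma on log2(FPKM + 1) and on log2(FPKM + 0.1), where PPP1R15A lost its call; it ran from 1 to 2 with a library left out, and was 1 without wild-type replicate 1. DDIT3, not called in any alternative, changed sign to 0.03 without mutant replicate 1 (-0.29 to 0.03 over libraries left out). The cause was not tested.

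The labels give both groups replicates 1 to 3. Deviations from the group mean of same-numbered libraries correlated at -0.0274 to -0.0028 over tested genes, so the numbers were not taken as pairs. With the replicate block 6 genes were called higher and 2 lower, and 7074 genes over the whole table, against 7287 without it. Over the other lists 89 genes were called higher (76 to 93 over alternatives) and 44 lower (30 to 48). In single lists, eIF2 kinases and regulators called higher numbered 3 instead of 5 without an expression filter. Regulators of mTORC1 called lower numbered 8 instead of 13 with the minimum at 5 FPKM. Paralogues called lower numbered 2 or 3 instead of 5 under 4 alternatives. In the other small counts that moved, AP-1 and small MAF partners called higher fell to 2, those called lower ran from 0 to 3, XBP1 and ATF6 genes called lower fell to 2, and markers of other cell types called higher numbered 0 or 4 instead of 1 with other minima. Library totals moved the median of all genes to 0.032 and the share of called genes that were higher to 56.2%, against 50.5%. Counts were low, and limit the precision, for CEBPD (18 to 51 per library), DDIT4L (26 to 99), ATF5 (61 to 128) and DDIT3 (92 to 118), among others.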

Other observations

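Some genes of the pathway stayed below the expression minimum and were read in the fit without a filter. JDP2, a zipper protein that binds the same sites as ATF3, had 178, 168 and 138 counts in the mutant libraries, against 58, 40 and 46 counts in the wild-type libraries, a log2 fold change of 1.66. ASNS, asparagine synthetase and a textbook ATF4 target, had 88, 74 and 95 counts in the mutant libraries, against 59, 72 and 63 counts in the wild-type libraries, or 0.997 ± 0.185 and 0.753 ± 0.104 FPKM (SD, n = 3 each), and did not pass (0.32, adjusted p = 0.213). CHAC1, a glutathione-degrading enzyme that ATF4 and DDIT3 are known to induce, was above the minimum and had 171, 145 and 151 counts in the mutant libraries, against 24, 32 and 24 counts in the wild-type libraries (log2 fold change 2.49, SE 0.18, adjusted p = 3.15e-09). DDIT3 RNA itself did not pass.

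The length and ATG content of the leader ahead of the coding sequence differed within the group. ATF4 had 7 ATG triplets in a leader of 882 bases, DDIT3 had 4, CEBPG 3, and ATF5, TRIB3 and PPP1R15A 2 each, while ATF3 and SESN2 had 1 and CEBPB and DDIT4 had 0. At least 2 were found in 29.7% of 10792 tested coding genes, whose median was 1. All 4 genes with 0 or 1 ATG rose in RNA. Of the 6 genes with at least 2, ATF4 and CEBPG rose, ATF5 and PPP1R15A fell, and DDIT3 and TRIB3 did not pass. The split was noticed after the values were seen, in 10 genes, and was not tested.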
